A study of Mus musculus with 14 samples.

Results

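The comparison described here is that of H3K4 dimethylation (H3K4me2) in MAF9 cells under the inhibitor MM-401 and under its solvent DMSO. Its members were all autosomal peaks of the 2 H3K4me2 lists, 102640 in DMSO and 89778 under MM-401, together 192418 of the 532629 peaks in the 10 peak lists of the series. They were chosen by antibody, cell line and chromosome, and no measured value entered the choice. MAF9 cells are mouse bone marrow cells transduced with the MLL-AF9 fusion, so both conditions carried the fusion. Their medium was Iscove's, to which serum (15%) and interleukin-3 (10 ng/ml) had been added, and they received MM-401 at 20 µM or DMSO for 2 days. Side by side with this comparison stand the H3K4me2 lists of a different line, MLL-AF9-transduced bone marrow cells with the genotype Mll1 flox/flox, ER-Cre+/-, treated for 2 days with 4-hydroxytamoxifen (4OHT) at 400 nM or with ethanol (EtOH). Both groups of that line carried the floxed alleles and the Cre, and deletion of Mll1 under 4OHT was not checked here. Each condition was 1 library, so there was no replicate error and no test between conditions was made.

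MLL1 is a histone methyltransferase that works in a complex, and WDR5 is among the shared subunits of the complexes of MLL1 and its relatives. The inhibitor MM-401 was designed to prevent MLL1 from binding WDR5. H3K4me2 lies over active and poised promoters and over enhancers, and at active genes it often forms one continuous domain on both sides of the start site. MLL-AF9 joins the N-terminal part of MLL1 to a partner of the elongation machinery and lacks the catalytic domain of MLL1.

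The lists give the positions of peaks in the mm9 build and hold no height, score or read count, so the depth behind each peak is unknown. A lost peak is one that was called in DMSO and overlapped by no peak under MM-401, and a gained peak is the reverse. All edges lie on a grid of 25 bp, the bin of the peak caller HPeak, and a change of 1 step is the smallest that can be seen. In a bulk culture, fewer cells with the mark and less of the mark per cell cannot be told apart. Intervals are 95% Wilson intervals. They describe counting error alone, as if peaks beside each other were independent. Genes and sequences at the peaks and the marker genes of the labelled cell type were not analysed here, since no gene annotation or sequence in mm9 was used.

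The shorter MM-401 list had fewer narrow and medium peaks and about as many wide ones. Width classes are given by their limits, the lower limit being excluded in all but the narrowest class. In all 6 classes up to 2000 bp the count was lower under MM-401, by 11.9% for peaks of 75 to 100 bp, by 17.4% for those of 300 to 500 bp and by 13.7% for those of 1000 to 2000 bp. Peaks of 2000 to 5000 bp numbered 11373 in DMSO and 11320 under MM-401. Peaks over 5000 bp numbered 1584 in DMSO and 1670 under MM-401. DMSO peaks covered 95.5 Mb and MM-401 peaks 89.1 Mb, a difference of -6.67% of the DMSO bases, against -12.5% for the number of peaks.

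To follow each domain from DMSO to MM-401, peaks of the 2 lists were joined into groups by overlaps of at least 1 bp. Of the 102640 DMSO peaks, 31382 were lost, the whole-list share being 30.6% (30.3 to 30.9). A further 39134 DMSO peaks, or 38.1%, met exactly 1 MM-401 peak that met no other DMSO peak, and these are called 1-to-1 pairs. Another 7803 DMSO peaks, 7.6% of the list, were split, each into 2 or more MM-401 peaks. Merging took 16905 DMSO peaks, which lay under 7712 MM-401 peaks, or 8.59% of the MM-401 list. The remaining 7416 DMSO peaks stood in 3190 groups of several peaks in both lists. In the MM-401 list 17771 peaks, 19.8% (19.5 to 20.1), were gained. Thus 1.77 peaks were lost for each one gained. The lists differ in length, and with the longer list reduced to its widest peaks at the length of the shorter, 22073 were lost and 19217 gained. There were 1.01 split DMSO peaks for each merged MM-401 peak, a balance that turned with the peaks kept. It was 0.426 with the widest 50% of each list and 1.23 with the longer list reduced to its widest peaks at the length of the shorter.

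The fate of a peak followed its starting width. Of DMSO peaks of 75 to 100 bp, 72.5% (71.7 to 73.3) were lost. The share was 65.7% at 100 to 200 bp, 48.2% at 200 to 300 bp and 27.4% at 300 to 500 bp. It was 7.36% (6.97 to 7.78) at 500 to 1000 bp, and 114 of 18608 peaks of 1000 to 2000 bp were lost, or 0.613%. Of the 11373 peaks of 2000 to 5000 bp 4 were lost, and of the 1584 wider ones 0, with an interval that reached 0.242%. The share of DMSO peaks with no EtOH peak fell likewise, without the inhibitor. It was 65.0% at 75 to 100 bp, 46.7% at 200 to 300 bp, 13.9% at 500 to 1000 bp and 0 over 5000 bp. Splitting under MM-401 ran the other way. It took 10.5% (10.0 to 10.9) of DMSO peaks of 500 to 1000 bp, 13.4% of those of 1000 to 2000 bp, 21.7% of those of 2000 to 5000 bp and 33.8% (31.5 to 36.2) of those over 5000 bp. Merging was most frequent at middle widths, at 13.3% (12.7 to 13.9) of the narrowest class, 20.4% (19.7 to 21.1) of the 300 to 500 bp class and 14.1% (12.5 to 15.9) of the widest class.

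**Figure D1:**
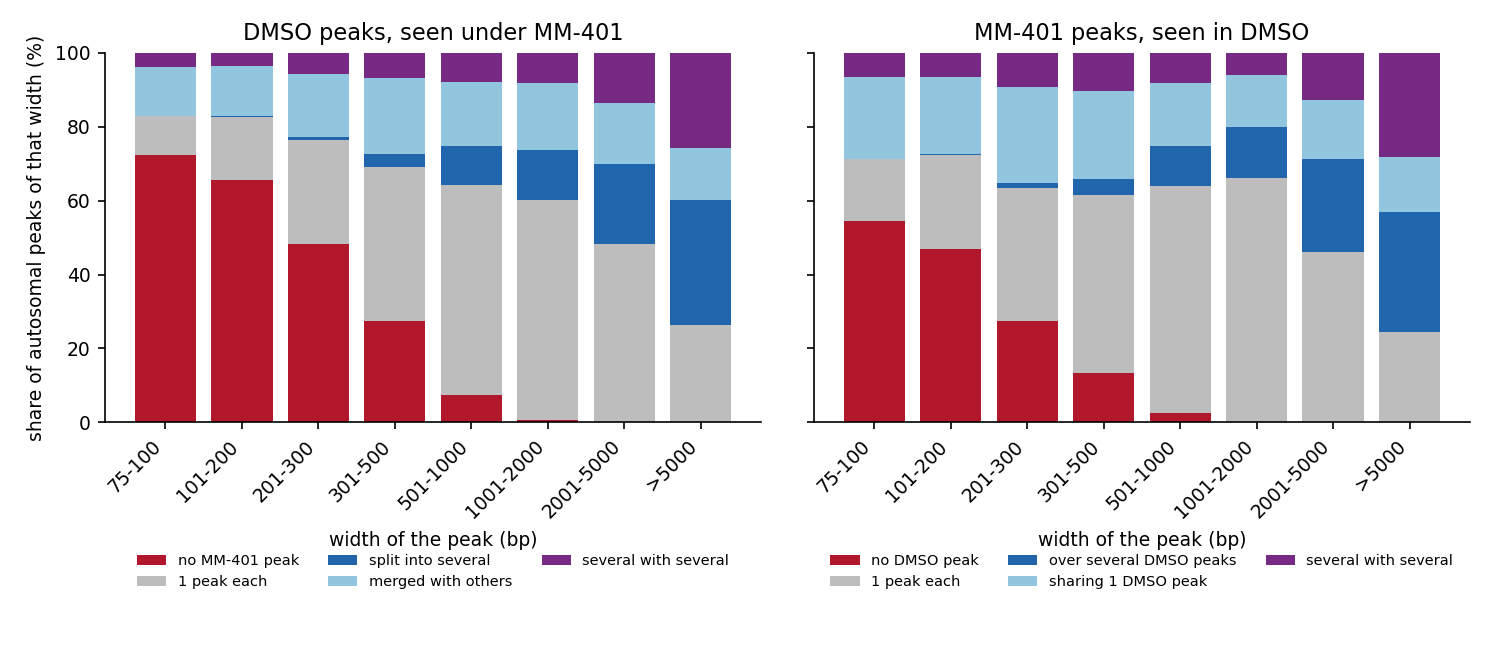
Stacked bars give the share of autosomal H3K4me2 peaks (%, y axis) with each fate, by the width of the peak in bp (x axis). On the left DMSO peaks are sorted by what lies over them under MM-401, on the right MM-401 peaks by what lies over them in DMSO, 1 library each. The share with no peak in the other list fell from 72.5% to 0 with width on the left and from 54.5% to 0 on the right.

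Read from MM-401 to DMSO, the same order of widths appeared at a lower level of loss. Of MM-401 peaks of 75 to 100 bp 54.5% (53.5 to 55.4) had no DMSO peak over them, against 13.5% of those of 300 to 500 bp and 0.112% of those of 1000 to 2000 bp. None of the 12990 MM-401 peaks over 2000 bp was gained. In every class up to 2000 bp the lost share of DMSO peaks was above the gained share of MM-401 peaks, with intervals that did not overlap. MM-401 peaks over 5000 bp lay over several DMSO peaks about as often as DMSO peaks of that width were split. At 2000 to 5000 bp MM-401 peaks did so more often. For peaks over 5000 bp the shares were 32.4% (30.2 to 34.7) and 33.8% (31.5 to 36.2), and for 2000 to 5000 bp they were 25.1% (24.3 to 25.9) and 21.7% (20.9 to 22.4).

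Lost peaks were narrow. Their median width was 175 bp, with quartiles of 100 and 250 bp, and 26797 of the 31382, or 85.4%, were at most 300 bp wide. They made up 6.44 Mb of the 17.8 Mb of DMSO bases that MM-401 left uncovered. Many lay beside surviving domains: 46.9% had an MM-401 peak within 500 bp, 68.2% within 2 kb, and 11.3% were more than 10 kb from any. Closeness was not particular to lost peaks. Another DMSO peak lay within 2 kb of 78.3% of lost and 74.2% of matched DMSO peaks. None lay within 10 kb of 8.04% and 9.67%. The median distance to the nearest MM-401 peak rose with the width of the lost peak from 475 bp at 75 to 100 bp to 1550 bp at 500 to 1000 bp, and was 1362.5 bp for the 114 lost peaks of 1000 to 2000 bp.

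Among DMSO peaks of up to 500 bp, those with another DMSO peak close by were lost less often, width for width, than those with the next one 500 to 2000 bp away. For DMSO peaks of 75 to 100 bp the lost share was 67.5% (66.5 to 68.5) with the next DMSO peak within 500 bp and 87.6% (85.7 to 89.2) with it at 500 to 2000 bp. For DMSO peaks of 200 to 300 bp the same shares were 45.5% (44.5 to 46.5) and 62.3% (59.6 to 65.0). Beyond that distance the loss fell again, to 38.5% (31.7 to 45.8) of 179 peaks of 200 to 300 bp with no DMSO peak within 50 kb. Wider peaks did not follow this order. At 500 to 1000 bp the lost share was 8.14% (7.59 to 8.73) with a neighbour within 500 bp and 2.89% (1.53 to 5.41) with none within 50 kb.

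The lists of the Mll1 flox/flox line, made from other libraries, held few of the lost peaks. Of the lost peaks 34.7% (34.1 to 35.2) overlapped an EtOH peak and 25.9% a 4OHT peak, against 81.8% and 80.3% of DMSO peaks in 1-to-1 pairs. Lost peaks were narrower than 1-to-1 pairs, and a gap was also present within a width class. Of DMSO peaks of 200 to 300 bp, 65.7% (64.3 to 67.0) were lost where neither the EtOH nor the 4OHT list had a peak, and 27.6% (26.3 to 28.9) where both had one. For DMSO peaks of 300 to 500 bp these shares were 48.8% (47.0 to 50.6) and 14.3% (13.4 to 15.1). A peak held by the EtOH list alone was lost more often than one held by the 4OHT list alone, 58.3% (56.1 to 60.4) against 43.7% (40.9 to 46.5) at 200 to 300 bp. The gained peaks were similar to the lost ones in this respect, with 37.3% over an EtOH peak and 33.5% over a 4OHT peak.

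The 3 widest lost peaks were exceptions in size. The widest, chr7:146087501-146091425, was 3925 bp in DMSO and not called at all under MM-401, where the nearest peak lay 925 bp away. The EtOH list covered 11.5% of it and the 4OHT list 7.64%. The next, chr9:59517976-59520525, was 2550 bp wide and was 67.6% covered in EtOH and 2.94% in 4OHT. The last, chr1:155326251-155328425, was 2175 bp wide and was 4.60% covered in EtOH and not at all in 4OHT. None of the 3 held a WDR5 peak in DMSO or under MM-401, and those on chromosomes 9 and 1 each held 1 MLL1 peak under MM-401. Of all 118 lost peaks over 1000 bp, 90, or 76.3%, overlapped an EtOH peak and 69, or 58.5%, a 4OHT peak.

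Gained peaks were narrower still, with a median width of 150 bp, and 63.2% had a DMSO peak within 500 bp and 76.3% within 2 kb. The far tail was longer than for lost peaks, with 3.11% of gained and 1.47% of lost peaks more than 50 kb away. At 500 to 1000 bp gained peaks lay at a median of 1650 bp and lost ones at 1550 bp. They amounted to 3.17 Mb. The widest gained peak, chr1:91826426-91827975, was 1550 bp wide under MM-401, lay 8075 bp from the nearest DMSO peak and was absent from the EtOH and 4OHT lists. The next, chr11:102178201-102179550, was 1350 bp wide, and was covered to 100% in EtOH and 77.8% in 4OHT. It held a WDR5 peak in DMSO, where no H3K4me2 peak was called over it, and the nearest DMSO H3K4me2 peak ended 175 bp away. The last, chr15:62702301-62703550, was 1250 bp wide, lay 135275 bp from the nearest DMSO peak and held 2 WDR5 peaks under MM-401 and 0 in DMSO.

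Splitting of a domain was mostly the opening of a short gap. Of the 7803 split DMSO peaks, 6534, or 83.7%, became 2 pieces, 941 became 3 and 328 became 4 or more, up to 23. The 9626 gaps between the pieces had a median width of 100 bp with quartiles of 50 and 200 bp. A gap of 1 grid step, 25 bp, made up 20.6% of them, and 2.64% were over 500 bp. The gaps were spread along the domain, with 8.58% to 12.5% in each of 10 equal parts of its length. The pieces together kept a median of 82.5% of the DMSO peak, and the largest piece 63.5%. A split domain thus remained mostly covered, with its median width of 1575 bp in DMSO above the 850 bp of the 1-to-1 pairs.

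The widest split domains show how unlike such cases were. The widest, chr15:77643801-77671850, was 28050 bp long in DMSO and lay under 6 MM-401 peaks that left gaps of 1175 bp in all, the largest of them 575 bp. MM-401 covered 94.7% of it, EtOH 98.8% and 4OHT 99.3%. The domain chr2:3658401-3684425, 26025 bp long, met 23 MM-401 peaks, the most of any DMSO domain, with gaps of 4050 bp in all. MM-401 covered 83.5% of this domain, EtOH 97.0% and 4OHT 96.3%, and it held no WDR5 peak in either MAF9 list. The domain chr2:143742926-143768275, 25350 bp long, met 4 MM-401 peaks and stayed 97.1% covered, against 100% in EtOH and 98.3% in 4OHT. Here the outermost MM-401 peak began 1025 bp before the DMSO domain, so that splitting and extension occurred together.

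**Figure D2:**
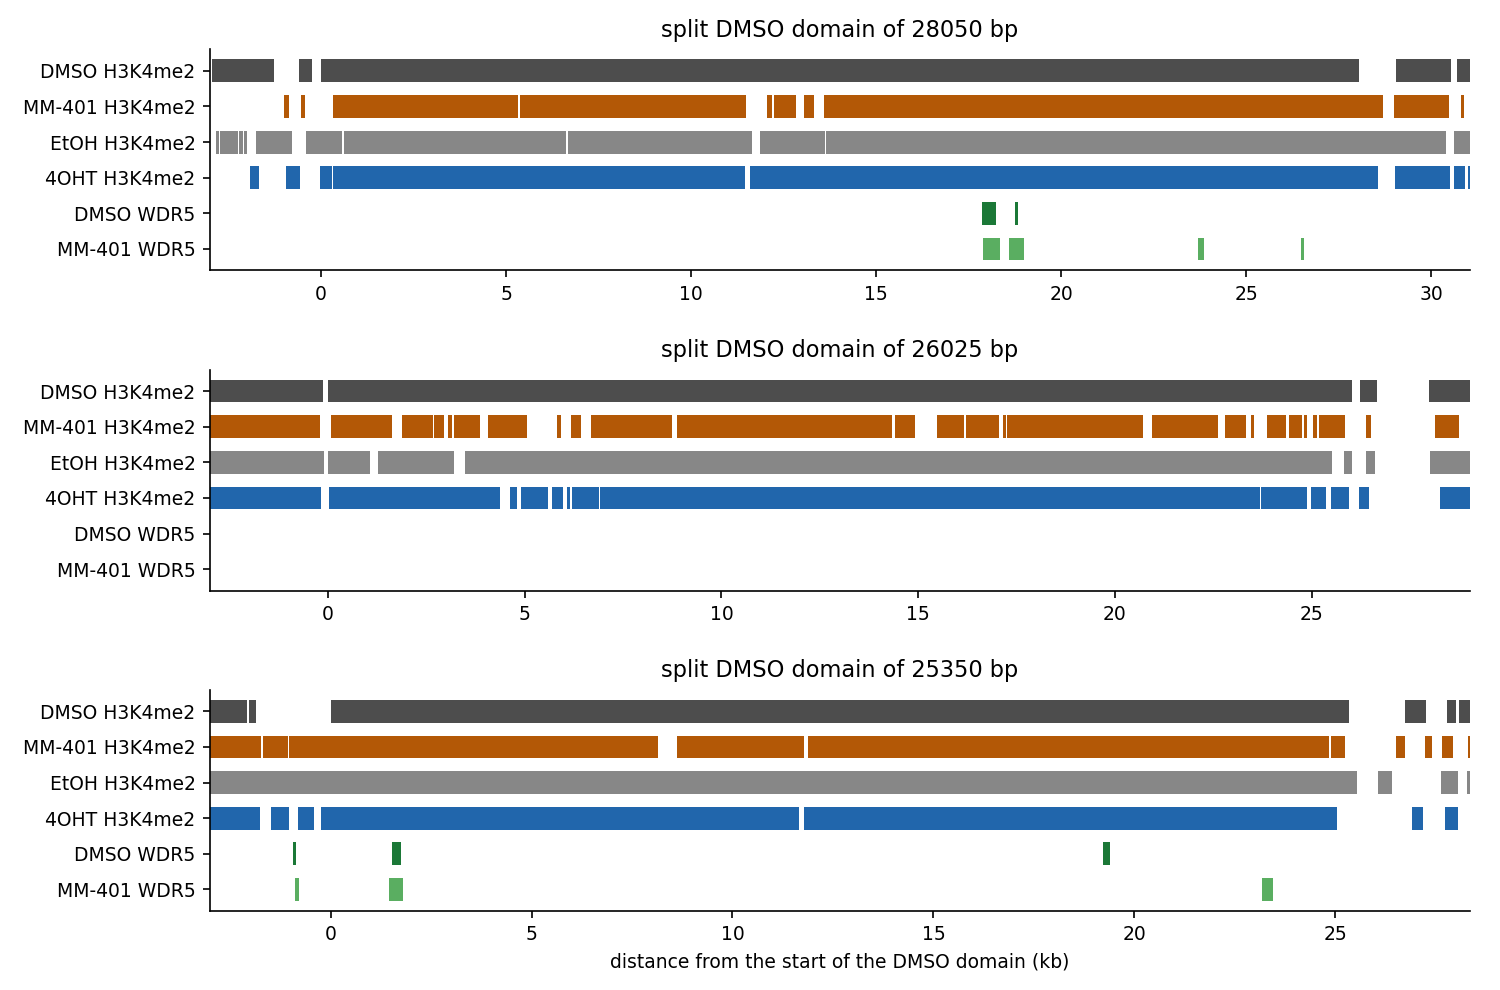
Maps of the 3 widest split DMSO domains with 3 kb on each side show called peaks as bars along the distance from the start of the domain (kb, x axis), in rows for the 4 H3K4me2 lists and the DMSO and MM-401 WDR5 lists. The MM-401 row breaks into 6, 23 and 4 peaks where the DMSO row is 1 bar, and most gaps are short against the domain. The 4OHT row is also broken inside all 3 domains, and the EtOH row inside all but the last.

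Merging mirrored splitting in scale. Of the 7712 MM-401 peaks that lay over several DMSO peaks, 6516, or 84.5%, joined 2, and 975 joined 3, up to 7. The 9193 DMSO gaps they filled had a median width of 100 bp with quartiles of 50 and 175 bp, and 19.1% of them were 1 grid step. The widest merged peak, chr2:6625226-6645475, was 20250 bp long under MM-401 and joined 3 DMSO peaks over gaps of 75 bp in all. The next, chr5:108144701-108164325, was 19625 bp long and joined 2 DMSO peaks over a gap of 25 bp. The last, chr6:52158176-52176100, was 17925 bp long and joined 2 DMSO peaks over a gap of 100 bp. It held 5 WDR5 peaks in DMSO and 0 under MM-401. All 3 were over 99% covered in DMSO, so these merges changed the number of peaks far more than the covered bases.

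In the deposited lists the balance of splits and merges differed from that between the other lists. From EtOH to 4OHT, 10099 EtOH peaks were split and 5509 4OHT peaks lay over several EtOH peaks, or 1.83 splits per merge. From DMSO to EtOH, 2 untreated libraries of different lines, the numbers were 7007 and 9892, or 0.708 splits per merge. The DMSO list is shared by this reading and the MM-401 comparison. Over the deposited lists and 5 other ways of matching or selecting peaks the ratio ran from 1.83 to 3.05 from EtOH to 4OHT, from 0.264 to 0.745 from DMSO to EtOH and from 0.426 to 1.23 under MM-401. With the widest 50% of each list the ratio from DMSO to EtOH was 0.452, above the 0.426 for MM-401, so the order of these readings turned. For starting peaks over 5000 bp the split share was 33.8% (31.5 to 36.2) under MM-401, 14.6% (12.9 to 16.4) in EtOH read against DMSO, and 54.0% (52.3 to 55.8) in 4OHT read against EtOH. Whole loss was 30.6% of DMSO peaks under MM-401 and 30.6% of DMSO peaks in EtOH. Hence about as many DMSO peaks were absent from the untreated list of the other line as from the MM-401 list. Whole loss was higher, at 37.2%, for EtOH peaks under 4OHT. The EtOH peaks were narrower, with a median width of 300 bp against 425 bp in DMSO. Within a width class the lost shares under MM-401 and 4OHT were closer. They were 72.5% and 75.3% at 75 to 100 bp, and 27.4% and 28.2% at 300 to 500 bp. The order was reversed at 500 to 1000 bp, at 7.36% and 6.31%, and at 1000 to 2000 bp, at 0.613% and 0.158%. The share of lost peaks over 10 kb from any surviving one was 11.3% under MM-401, 25.4% for DMSO peaks absent from EtOH and 5.40% for EtOH peaks absent from 4OHT. Their median distances were 600, 1500 and 375 bp.

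To describe shrinkage, the 39134 1-to-1 pairs were compared in width. The pairs had a median width of 850 bp in DMSO and 800 bp under MM-401. The median change was -25 bp, or 1 grid step, with quartiles of -200 and 100 bp, and the mean change was -45.6 bp. A change of 1 step or less was seen in 14.1% of the pairs, 49.5% were narrower under MM-401 by more than that, and 36.3% were wider. From EtOH to 4OHT the mean change was -75.9 bp, with 54.3% narrower and 31.9% wider, and from DMSO to EtOH it was 20.6 bp.

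The size and even the direction of the width change depended on which list set the width class. By DMSO width, pairs of 75 to 100 bp were wider under MM-401 in 81.4% of cases, while pairs of 500 to 1000 bp were narrower in 57.2% (56.2 to 58.2) and wider in 30.3%. By MM-401 width, those of 75 to 100 bp were narrower under MM-401 in 86.2%, and those of 1000 to 2000 bp were narrower in 43.3% and wider in 43.1%. The narrowest peaks of either list were thus mostly paired with wider peaks of the other. By the mean of both widths, a reading added after the lists had been examined, pairs were more often narrower than wider in all classes from 100 to 5000 bp. The shares were 54.3% (53.1 to 55.6) narrower and 35.1% (33.9 to 36.4) wider at 300 to 500 bp, with a median change of -75 bp. They were 50.3% and 37.9% at 2000 to 5000 bp, with a median change of -50 bp. Over 5000 bp the 2 shares were 47.2% (42.4 to 52.0) and 43.1% (38.4 to 47.9), and their intervals overlapped. By the same mean-width reading, at 300 to 500 bp narrower pairs also exceeded wider ones from DMSO to EtOH, at 57.5% against 34.4%, and from EtOH to 4OHT, at 53.7% against 36.6%. At 2000 to 5000 bp the readings parted, with 19.9% narrower and 72.9% wider from DMSO to EtOH and 69.8% narrower from EtOH to 4OHT.

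**Figure D3:**
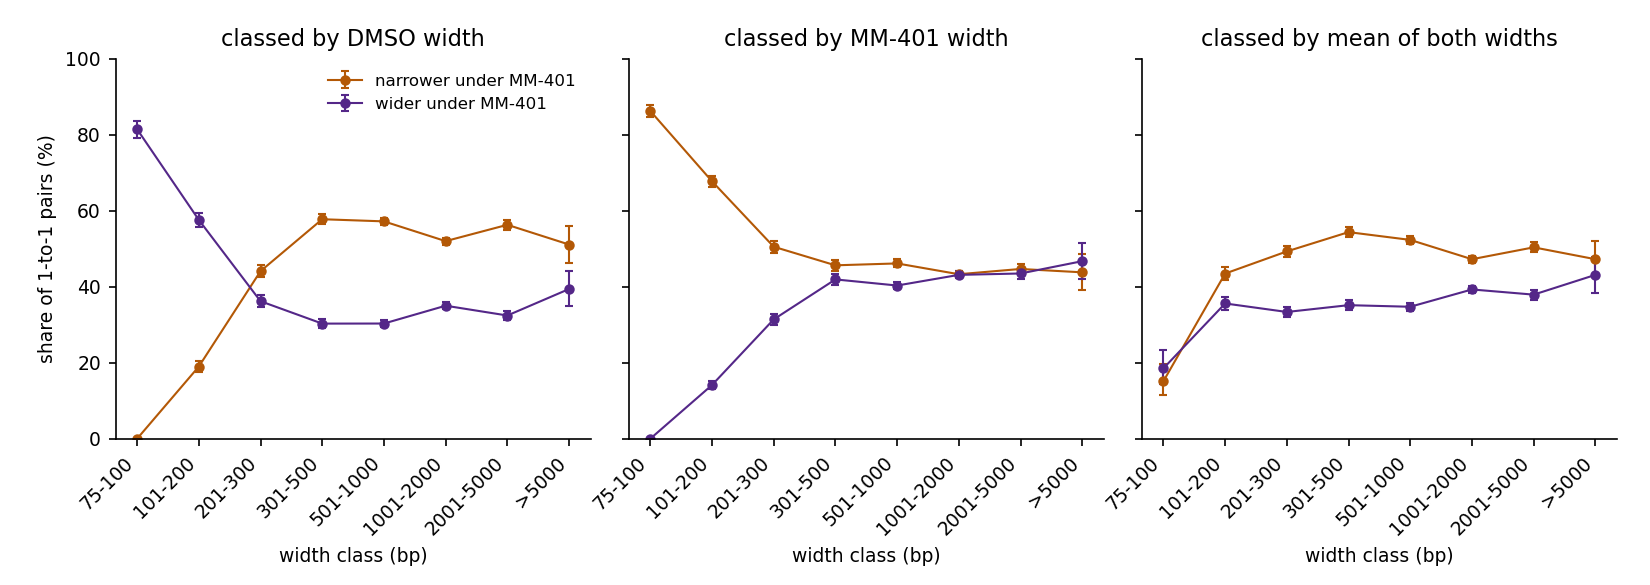
Points give the share of 1-to-1 pairs (%, y axis) that were narrower or wider under MM-401 by more than 25 bp, by width class in bp (x axis), with 95% Wilson intervals. The 3 panels set the class by the DMSO width, the MM-401 width and the mean of both, and the excess of narrower pairs at 300 to 500 bp is 57.7% against 30.3%, 45.6% against 41.9% and 54.3% against 35.1%.

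Over all pairs the lower and the upper edges, in order of position, moved inward and outward in similar shares. Within pairs the inward shifts of the lower and the upper edge were weakly related, with a Pearson correlation of 0.0834. The lower edge lay inward by more than 1 step in 42.8% of pairs and outward in 34.8%, and the upper edge inward in 42.7% and outward in 34.7%. In 5.20% of pairs neither edge moved by more than 1 step. Both edges moved inward in 18.8% of pairs and both outward in 12.8%. In 28.6% one edge moved inward and the other outward, so that the domain shifted, 5631 pairs towards higher positions and 5560 towards lower ones. An edge moved by more than 500 bp in 3.47% of all pairs and in 12.9% of pairs over 5000 bp.

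The pairs with the greatest change were rare and large. The pair at chr12:75043076-75045850 went from 2775 bp in DMSO to 225 bp under MM-401, losing 1525 bp at its lower and 1025 bp at its upper edge, and neither EtOH nor 4OHT had a peak over it. The pair at chr4:41250551-41254000 went from 3450 to 1025 bp, with 60.1% of the DMSO peak covered in EtOH and 32.6% in 4OHT. The pair at chr3:103740726-103742950 went from 2225 to 175 bp, with 73.0% covered in EtOH and 27.0% in 4OHT. In the other direction, the pair at chr11:5422326-5426050 grew from 3725 to 5175 bp, 1325 bp of it at the lower edge. The pairs at chr7:149776726-149776800 and chr1:156135751-156135825 were 75 bp wide in DMSO and 1475 and 1425 bp under MM-401. The 3 narrowed pairs held no WDR5 peak in either MAF9 list, and of the 3 widened pairs 1, that on chromosome 11, held a WDR5 peak under MM-401.

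Counted in bases, and before gains were set against losses, more H3K4me2 was trimmed from edges than was lost with whole peaks. MM-401 left 17.8 Mb of DMSO bases uncovered, of which 9.21 Mb, or 51.9%, lay at the edges of surviving domains, 6.44 Mb, or 36.3%, in lost peaks and 2.11 Mb, or 11.9%, in gaps inside domains. In the other direction 11.4 Mb were covered under MM-401 alone, of which 6.36 Mb lay at edges, 3.17 Mb in gained peaks and 1.86 Mb in filled gaps. The net difference had the reverse order, at -3.27 Mb in whole peaks, -2.85 Mb at edges and -0.245 Mb in gaps. The bases covered in both conditions came to 77.7 Mb, or 81.4% of the DMSO bases. By width, 23.3% of the bases in DMSO peaks of 75 to 100 bp were still covered, 72.4% at 500 to 1000 bp and 93.5% over 5000 bp.

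The same accounting gave 17.1 Mb of DMSO bases uncovered in EtOH, with 7.50 Mb at edges and 7.58 Mb in whole peaks. From EtOH to 4OHT 18.9 Mb were uncovered, with 9.15 Mb at edges, 6.72 Mb in whole peaks and 3.01 Mb in gaps. The amounts uncovered were therefore similar in the 3 readings. The amounts newly covered were 11.4 Mb under MM-401, 20.5 Mb in EtOH read against DMSO and 9.62 Mb under 4OHT.

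**Figure D4:**
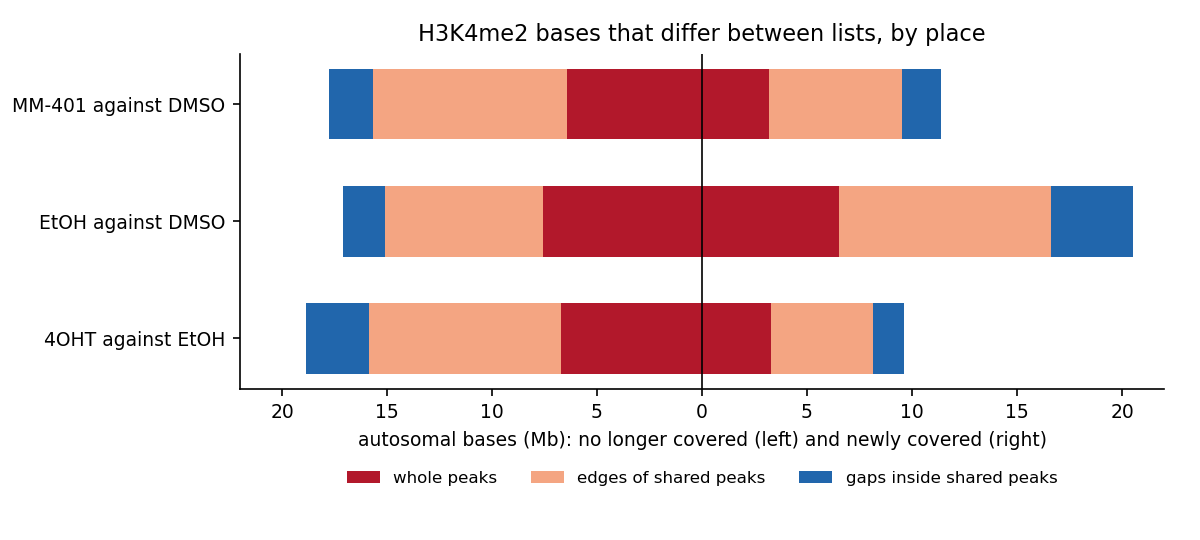
Horizontal bars give the autosomal H3K4me2 bases (Mb, x axis) of the starting list that the other list left uncovered (left of 0) and those it newly covered (right of 0), by place, for 3 pairs of lists with 1 library each. Edges made the largest share of the 17.8 Mb uncovered and the 11.4 Mb newly covered under MM-401.

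The uncovered bases were unequal in how often the other line carried them. The EtOH list covered 25.7% of the bases in lost peaks, 52.4% of those trimmed at edges and 73.8% of those in opened gaps, against 90.5% of the bases shared by DMSO and MM-401. The 4OHT list covered 18.0%, 41.5%, 64.2% and 89.0% of the same bases. Bases newly covered under MM-401 followed the same order, with 29.2% of those in gained peaks, 56.8% of those at edges and 81.4% of those in filled gaps covered in EtOH. Lost and gained peaks were narrow, however, and EtOH covered less of narrow DMSO peaks whatever their fate. It covered 30.9% of all bases in DMSO peaks of 75 to 100 bp, 38.8% at 200 to 300 bp and 96.7% over 5000 bp. The places were not compared within a width class, so their order apart from width was not tested.

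WDR5, mapped in the same MAF9 cells, was rare in lost and gained peaks and common in wide domains. Of the lost peaks 134, or 0.427% (0.361 to 0.505), held a DMSO WDR5 peak, against 14.2% of the 1-to-1 pairs, 19.4% of the split and 16.8% of the merged DMSO peaks. The widths of these groups differ, and within a width the gap was smaller. At 200 to 300 bp the shares with WDR5 were 0.663% (0.489 to 0.898) of the lost peaks and 3.44% (2.89 to 4.08) of the 1-to-1 pairs. At 2000 to 5000 bp they were 32.0% (30.2 to 33.8) of the split peaks, 39.6% (38.3 to 40.9) of the 1-to-1 pairs and 46.2% (44.0 to 48.5) of the merged ones. For domains over 5000 bp they were 51.3% (47.1 to 55.5), 63.7% (59.0 to 68.2) and 61.9% (55.4 to 68.0). Split domains thus held WDR5 less often than 1-to-1 pairs in both these classes, whereas among peaks of 500 to 1000 bp 6.09% (5.04 to 7.33) of the split and 7.40% (6.88 to 7.95) of the 1-to-1 peaks held WDR5, and the intervals overlapped. Of the gained peaks 1.06% held a DMSO WDR5 peak and 1.64% an MM-401 one. MLL1 peaks of DMSO, in a list without the HPeak names and off its grid, lay in 0.323% (0.209 to 0.499) of the lost peaks and 0.305% (0.170 to 0.545) of the 1-to-1 pairs of 200 to 300 bp, with intervals that overlapped. At 500 to 1000 bp the intervals did not overlap, with 0.588% (0.285 to 1.21) of the lost peaks and 1.60% (1.36 to 1.87) of the 1-to-1 pairs. MLL1 peaks of DMSO lay in 29.7% (26.0 to 33.7) of split domains over 5000 bp and in 39.9% (35.3 to 44.6) of 1-to-1 pairs of that width.

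Gaps that closed under MM-401 lay over WDR5 sites more often than gaps that opened. Of the 9626 gaps opened inside DMSO domains, 182, or 1.89% (1.64 to 2.18), overlapped a DMSO WDR5 peak. Of the 9193 DMSO gaps filled under MM-401 there were 867, or 9.43% (8.85 to 10.0). With the MM-401 WDR5 list in place of the DMSO one the shares were 2.23% and 9.24%. Nearly the same shares were found without the inhibitor. Of gaps opened in EtOH inside DMSO domains 204 of 8663, or 2.35%, overlapped a DMSO WDR5 peak, and of DMSO gaps filled in EtOH 1344 of 14310, or 9.39%. Both readings start from the same DMSO list, and a property of that list and a change under MM-401 cannot be told apart. Under MM-401 the difference was present at each gap width. It was 1.79% against 4.91% for gaps of 25 to 50 bp, and 1.29% (0.890 to 1.87) against 18.5% (16.7 to 20.3) for gaps over 200 bp. Of all gaps of up to 500 bp between neighbouring peaks of a list, 5.18% overlapped a DMSO WDR5 peak in DMSO and 3.94% under MM-401.

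From EtOH to 4OHT, within the other line, the order was reversed. Gaps opened under 4OHT inside EtOH domains overlapped a DMSO WDR5 peak in 798 of 13671 cases, or 5.84% (5.46 to 6.24), and EtOH gaps filled under 4OHT in 124 of 6474, or 1.92% (1.61 to 2.28). The EtOH list had the lowest share of short gaps over these sites, 1.60%, against 3.88% for 4OHT.

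Under MM-401 pairs that held WDR5 had a higher median width change than pairs that did not. This too was seen without MM-401, though not in every class. Among 1-to-1 pairs of 500 to 1000 bp in DMSO, the 681 with a DMSO WDR5 peak had a median change of 25 bp, with quartiles of -100 and 175 bp. The 8527 without one had a median change of -100 bp, with quartiles of -275 and 75 bp. Of the former 36.1% (32.6 to 39.8) were narrower and 48.0% (44.3 to 51.8) wider, and of the latter 58.8% (57.8 to 59.9) were narrower and 28.9% (27.9 to 29.9) wider. At 1000 to 2000 bp the medians were 25 bp with WDR5 and -75 bp without. At 2000 to 5000 bp both were below 0, at -50 and -100 bp. The pairs with WDR5 were somewhat wider within a class, with median DMSO widths of 800 and 750 bp at 500 to 1000 bp. By the mean of both widths the order held at 500 to 1000 bp, with medians of 0 and -50 bp, and at 1000 to 2000 bp, with 25 and -25 bp. From DMSO to EtOH the medians by DMSO width were 25 bp with WDR5 and -125 bp without at 500 to 1000 bp, and 200 and 150 bp at 2000 to 5000 bp. From EtOH to 4OHT by EtOH width they were -25 and -125 bp at 500 to 1000 bp and -75 and -100 bp at 1000 to 2000 bp, and at 2000 to 5000 bp both were -200 bp. By the mean of both widths the EtOH to 4OHT medians at 500 to 1000 bp were -37.5 and -50 bp. Some classes without MM-401 had the reverse order. From EtOH to 4OHT by EtOH width, the medians over 5000 bp were -275 bp with WDR5 and -200 bp without. By the mean of both widths at 300 to 500 bp, they were -100 and -75 bp from EtOH to 4OHT. From DMSO to EtOH the same class had -112.5 and -100 bp.

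**Figure D5:**
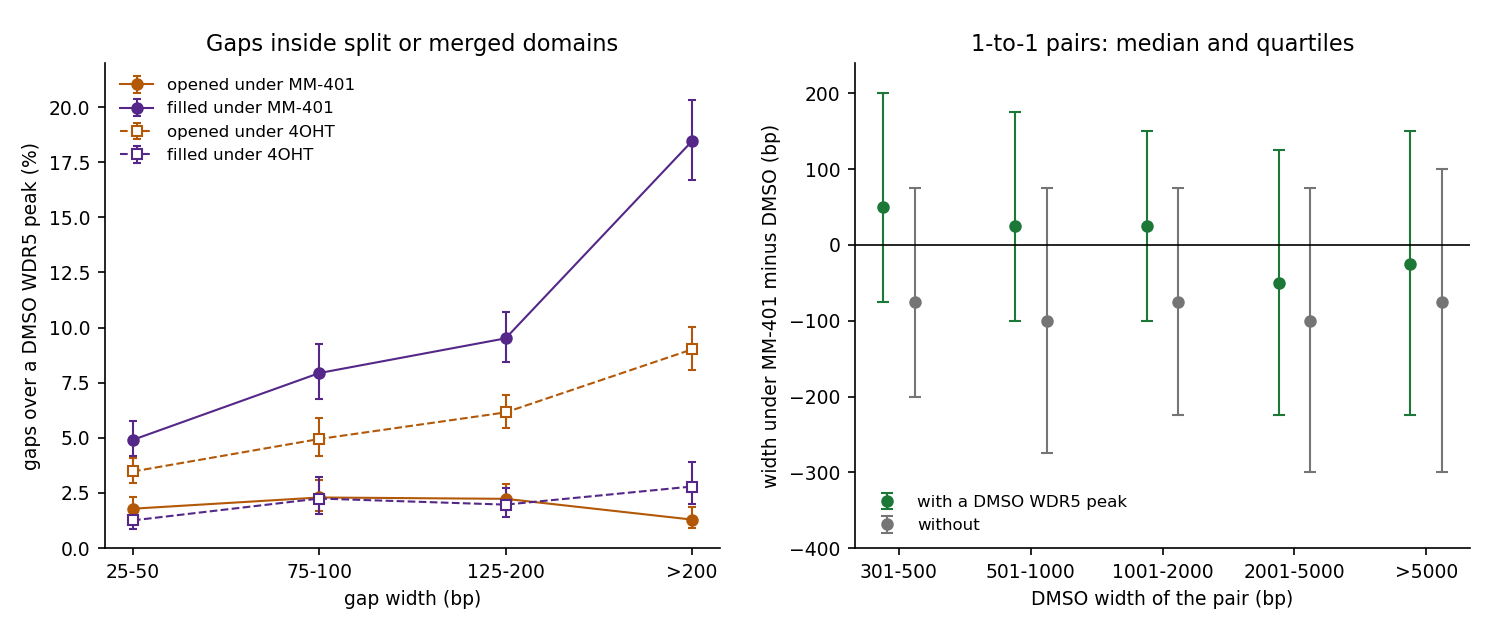
Left, the share of gaps over a DMSO WDR5 peak (%, y axis) by gap width in bp (x axis) with 95% Wilson intervals, for gaps opened and filled under MM-401 (circles) and under 4OHT (squares). Right, the width under MM-401 minus that in DMSO (bp, y axis; medians with quartiles) of 1-to-1 pairs by DMSO width, where pairs with a DMSO WDR5 peak sit above those without in every class.

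Loss and gain were spread over all autosomes. The lost share ran from 28.5% (27.3 to 29.8) on chromosome 13 to 33.5% (31.9 to 35.3) on chromosome 18, with a median of 30.5%. Chromosome 18 had the most peaks of at most 300 bp, 44.8% of its DMSO peaks, and at the whole-list rate of each width class it would have lost 32.5%. Chromosome 13 would have lost 31.5% on the same reckoning, the lowest ratio of observed to reckoned loss, 0.907, while the highest was 1.05 on chromosome 1. Chromosome 13 also had the highest gained share, 22.4% (21.2 to 23.6), and chromosome 17 the lowest, 16.8% (15.6 to 18.1). The share of split DMSO peaks ran from 6.76% to 8.25% and that of merged MM-401 peaks from 7.43% to 9.34%. Between 10 equal parts of the chromosomes, from the lowest positions to the highest, the lost share ran from 29.4% to 31.9% with no steady course, and the gained share from 18.3% to 21.7%.

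The lost share was also read by the number of peaks in a window. In 1 Mb windows with fewer than 20 DMSO peaks 25.6% (24.4 to 26.8) of the peaks were lost, against 31.6% (31.2 to 32.1) in windows with 100 or more. At the whole-list rate of each width class their peaks would have lost 32.6% and 30.0%, the opposite order. The count of DMSO peaks holds the lost peaks themselves, so part of this order is built in. With windows classed by the number of EtOH peaks, a reading added after the lists had been examined, the lost shares were 27.4% (26.4 to 28.4) and 30.9% (30.4 to 31.4), and by the number of MM-401 peaks 28.1% (27.0 to 29.2) and 30.7% (30.1 to 31.3). The gained share, classed by EtOH peaks, ran from 27.6% in the sparse windows to 17.5% in the dense ones. Of the lost peaks 12370, or 39.4%, had matched peaks as neighbours on both sides, and 3807, or 12.1%, stood in 574 runs of 5 or more. The shares that independent loss would give were not reckoned, so clustering of lost peaks was not tested. The longest run was 29 successive DMSO peaks within 42975 bp at chr11:4446251-4489225, of which 26 were also absent from EtOH.

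Among the 1439 windows of 1 Mb with at least 20 DMSO peaks the median lost share was 30.1%, the central 80% lay between 19.6% and 40.7%, and 22 windows lost more than 50%. The windows with the greatest loss were neighbours on chromosome 4. The window chr4:90000001-91000000 lost 32 of its 44 peaks, or 72.7% (58.2 to 83.7), where its widths would have given 17.7 peaks, and chr4:91000001-92000000 lost 25 of 35, or 71.4% (54.9 to 83.7), where they would have given 13.6. Of these lost peaks 11 and 12 were held by EtOH and 7 and 6 by 4OHT. The window chr3:22000001-23000000 lost 21 of 30 peaks, of which 3 were held by EtOH. At the low end, chr4:61000001-62000000 lost 1 of 20 peaks, chr13:62000001-63000000 lost 1 of 20 and chr3:143000001-144000000 lost 2 of 32. The highest gained shares were 15 of 29 MM-401 peaks at chr1:18000001-19000000, 12 of 24 at chr6:84000001-85000000 and 16 of 33 at chr4:105000001-106000000. With 20 to 44 peaks a window, the intervals of these shares were wide, for example 0.888% to 23.6% for 1 of 20.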

How the data were processed

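ChIP-seq for H3K4me2 was performed with 15 µl of antibody per ChIP. Per the submitters' processing notes, Bowtie and the mm9 build were used. Each list used here was deposited by the authors as chromosome, start and end of peaks, 1 file per library, and all but the MLL1 list of DMSO carry HPeak names. HPeak's threshold and version are not given in the sources used here. The deposited values hold no score or depth. Starts were read as 1-based. The MLL1 list of DMSO, off the 25 bp grid and per the study's text from MACS with a stated cutoff, was read as 0-based. Inputs and the WDR5 lists of the Mll1 flox/flox line were not used here.

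Peaks were matched by 1 bp and grouped by connected overlaps with Python 3.11.15 and numpy 2.4.6, tested on lists with planted fates and against bedtools 2.31.1. Named are the 3 widest peaks of each fate, the 3 greatest changes and the 3 extreme 1 Mb windows. The members, lists and width classes were chosen with earlier results of these data known. Alternatives are given in the closing section.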

Additional observations from a re-analysis of the deposited data

Results flagged for a closer look

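Numbers of H3K4me2 peaks in 3 width classes differed with opposite signs in the 2 lines, and with 1 library per condition the difference was not tested. Peaks of 500 to 1000 bp differed by -2435 between MM-401 and DMSO and by 633 between 4OHT and EtOH. Those of 1000 to 2000 bp differed by -2549 and by 2609. Peaks over 5000 bp differed by 86 under MM-401 and by -1054 under 4OHT.

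The gaps over DMSO WDR5 peaks also went opposite ways. Opened minus filled gaps came to -685 for MM-401 against DMSO and to 674 for 4OHT against EtOH. For EtOH against DMSO, with no inhibitor, the value was -1140. This too was not tested.

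The sex chromosomes lay outside the comparison. On chromosome X 686 of 2473 DMSO peaks had no MM-401 peak, or 27.7% (26.0 to 29.5), below the 28.5% of the lowest autosome, with an interval that reached it. Chromosome Y had 23 DMSO peaks and 16 MM-401 peaks. The number of peaks on X and Y limits these values.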

How the results depend on the processing

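A match by 50% of the shorter peak, lists of equal length and chromosome X kept every count within 1.5 times its value.

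Joining peaks up to 500 bp apart left 13175 lost, 7028 gained, 1658 split and 1655 merged peaks, 3.82 Mb in lost peaks, 54.2% narrower pairs and a median change of -75 bp. Joining at up to 100 bp, added after the lists were examined, left 5184 split peaks, with 50.7% narrower and 36.9% wider pairs. The widest 50% of each list gave 7841 lost, 3527 gained, 1498 split and 3517 merged peaks, 0.575 Mb in gaps and 38.9% wider pairs. Counting peaks within 2 kb as matched gave 9968 lost and 4204 gained. Narrower and wider pairs were 38.9% and 28.0% for changes over 10% of the width, and 22.1% and 13.3% for changes over 200 bp. Read from MM-401 to DMSO, 36.3% of the pairs were narrower in DMSO and 49.5% wider. That reading exchanges the 2 shares of the same pairs by construction. Wider pairs were 37.4% with 50% overlap, and narrower ones 50.1% with lists of equal length. The median window lost 18.6% of its DMSO bases, against 30.1% of its peaks.

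More peaks were lost than gained under all these settings, with 22073 lost and 19217 gained for lists of equal length. Split peaks outnumbered merged ones with lists of equal length (8041 against 6534). They were fewer than merged ones with the widest 50% of each list and when joined at up to 100 bp (5184 against 5615). The lost share in dense minus sparse windows was 6.06 percentage points by DMSO peaks and 2.57, 4.19 and 3.56 by MM-401 peaks, the mean of both and EtOH peaks, readings added after the lists were examined. No library could be left out, since each condition had 1. No paired analysis was possible because each condition was 1 library. The depth is unknown, so what it limits was not tested.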

Other observations

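On chromosome 1, 41.5% of DMSO peaks had no EtOH peak, against a median of 30.0% over the autosomes, while 32.3% of its DMSO peaks had no MM-401 peak. Beside the 2 chromosome 4 windows with the greatest loss, chr4:89000001-90000000 lost 3 of 8 peaks and chr4:92000001-93000000 lost 0 of 5.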
